A study of Mus musculus with 11 samples.

Results

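Leukocytes leave the blood by rolling on, and then adhering to, the endothelium, and 9 genes of that surface were followed in whole neonatal mouse skin after depletion of regulatory T cells. They were chosen by gene name, 9 of 49315 genes in the count table, and fall into 5 inducible adhesion genes (Icam1, Vcam1, Sele, Selp and Ackr1) and 4 constitutive endothelial genes (Pecam1, Cdh5, Kdr and Tek). All 9 passed the filter on low counts, among 18375 genes tested.

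Foxp3-DTR mice on the C57BL/6J background carry the diphtheria toxin receptor under the Foxp3 promoter, so that diphtheria toxin (DT) removes Foxp3-expressing regulatory T cells. The study describes the PBS-treated controls of its pigmentation experiment as Foxp3-DTR mice too. The sequenced control mice are taken here to have carried the receptor as well. DT was given intraperitoneally at 30 ng per g body weight. ΔETreg mice received 2 doses, at postnatal days P6 and P8, and were harvested at P9. ΔLTreg mice received 2 doses, at P10 and P12, and were harvested at P13. ΔTreg mice received 4 doses between P6 and P12 and were also harvested at P13. Control mice received PBS, and the labels give no harvest day for them. RNA from a skin biopsy of each mouse was sequenced as 1 library, for 2 control and 3 mice in each other group, both sexes being present in each group. The 2 control libraries entered every comparison with control. Age cannot be told apart from treatment between ΔETreg and the P13 groups. The study describes its comparisons with control as matched for age, but the day of each control mouse is not in the labels, so age cannot be told apart from treatment in the comparisons with control either.

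The libraries held 23377571 to 34159435 counts, and the 9 genes were covered by 19 to 3435 counts per library. The tissue label was checked with the keratinocyte genes Krt5 and Krt14, which averaged 4023 and 2542 CPM (counts scaled by library size) in control skin. Foxp3 had 14 to 20 counts in control, 10 to 16 in ΔETreg, 13 to 23 in ΔLTreg and 9 to 19 in ΔTreg libraries. These ranges overlapped, so the depletion was not seen in the counts of the targeted gene, which are too low in whole skin to judge it. By flow cytometry, the study reports that regulatory T cells were efficiently depleted in skin, at P9 for ΔETreg and P13 for ΔLTreg. The group names below stand for the libraries labelled with each treatment. Because whole tissue was sequenced, fewer cells of a type and less RNA per cell cannot be told apart for any gene below.

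As background, postcapillary venules receive leukocytes from the blood. E-selectin and P-selectin capture passing cells, ICAM-1 and VCAM-1 hold them through leukocyte integrins, and ACKR1 carries chemokines across the venular wall. PECAM-1 and VE-cadherin sit at the junctions between endothelial cells, and VEGFR2 and TIE2 receive growth signals there. Inflammatory cytokines are known to raise transcription of the adhesion molecules, in large part through NF-kB. PECAM-1 is also carried by leukocytes and platelets, P-selectin by platelets, and ICAM-1 by many activated cells including keratinocytes and leukocytes.

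Promoter windows of RefSeq, 250 bases before to 50 after the annotated start, were found for 6 of the 9 genes (build GRCm38.p6), and windows of Vcam1, Pecam1 and Cdh5 were not used here. The 4 printed here are those in which a searched motif was found, 3 from inducible genes and 1 from a constitutive gene, read 5′ to 3′ on the gene's strand with every match in capitals. They lie at chr9:21015690-21015989 (plus strand) for Icam1, chr1:164047984-164048283 (plus strand) for Sele, chr1:164115014-164115313 (plus strand) for Selp and chr5:75978406-75978705 (minus strand) for Kdr.
Icam1: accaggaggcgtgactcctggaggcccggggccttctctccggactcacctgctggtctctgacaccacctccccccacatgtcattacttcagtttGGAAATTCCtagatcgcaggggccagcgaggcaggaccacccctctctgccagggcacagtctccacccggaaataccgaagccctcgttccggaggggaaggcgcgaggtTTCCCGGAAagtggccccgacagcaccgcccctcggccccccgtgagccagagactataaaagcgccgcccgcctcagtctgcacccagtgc
Sele: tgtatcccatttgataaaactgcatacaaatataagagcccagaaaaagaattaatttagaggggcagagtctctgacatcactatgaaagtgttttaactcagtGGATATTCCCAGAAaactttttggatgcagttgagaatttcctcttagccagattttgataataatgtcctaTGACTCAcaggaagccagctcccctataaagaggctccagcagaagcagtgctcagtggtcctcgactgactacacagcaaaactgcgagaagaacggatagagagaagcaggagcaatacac
Selp: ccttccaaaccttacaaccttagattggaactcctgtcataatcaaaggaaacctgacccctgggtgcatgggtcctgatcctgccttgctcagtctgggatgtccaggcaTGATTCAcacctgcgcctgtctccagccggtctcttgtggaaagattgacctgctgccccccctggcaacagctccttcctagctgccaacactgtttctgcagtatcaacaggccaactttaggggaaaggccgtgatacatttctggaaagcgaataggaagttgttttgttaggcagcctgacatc
Kdr: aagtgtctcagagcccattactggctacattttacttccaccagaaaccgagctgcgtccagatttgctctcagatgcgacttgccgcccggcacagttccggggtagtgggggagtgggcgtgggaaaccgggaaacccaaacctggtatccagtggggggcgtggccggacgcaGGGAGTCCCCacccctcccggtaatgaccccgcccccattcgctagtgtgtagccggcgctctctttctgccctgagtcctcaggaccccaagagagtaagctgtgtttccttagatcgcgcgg

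Both strands were searched for the kB consensus, GGANNTTCC (a looser kB spelling, chosen after these sequences had been read), TTCNNNGAA (the STAT spelling), TGANTCA (the AP-1 spelling) and an interferon-response spelling (GAAA, any 2 bases, GAAA). The Icam1 window held GGANNTTCC at -153 to -145 from the start and TTCNNNGAA at -42 to -34. The Sele window held GGANNTTCC at -145 to -137, TTCNNNGAA overlapping it at -140 to -132, and TGANTCA at -73 to -67. The Selp window held TGANTCA at -139 to -133, and the Kdr window held the kB consensus at -74 to -65. No spelling was found in the Ackr1 and Tek windows. Of all 32851 windows of this length, 4.26% held GGANNTTCC, 8.46% the kB consensus, 8.3% TTCNNNGAA, 7.81% TGANTCA and 3.44% the interferon-response spelling. These matches describe letters in the windows and are no measure of binding.

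In skin depleted through the whole of P6 to P12, all 5 inducible genes were higher than in control skin, by 3.00-fold for Ackr1 up to 12.7-fold for Sele. The constitutive genes moved apart from one another, with Pecam1 higher, Cdh5 and Kdr lower, and Tek short of the threshold. Across all tested genes, 12.1% were called higher and 9.39% lower in the same comparison (21.5% in either direction), against 5 of 5 inducible genes higher, 1 of 4 constitutive genes higher and 2 of 4 lower. A gene was called at an adjusted p under 0.05 by the quasi-likelihood method of edgeR, the adjustment being Benjamini and Hochberg's over all tested genes, and every adjusted p below came from it. As for the mice themselves, 5 of 5 inducible genes had all ΔTreg mice above both controls, as had 26.8% of all genes, and 3 of 4 constitutive genes had them all below, as had 25.8%. Errors of log2 fold changes are standard errors.

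**Figure D1:**
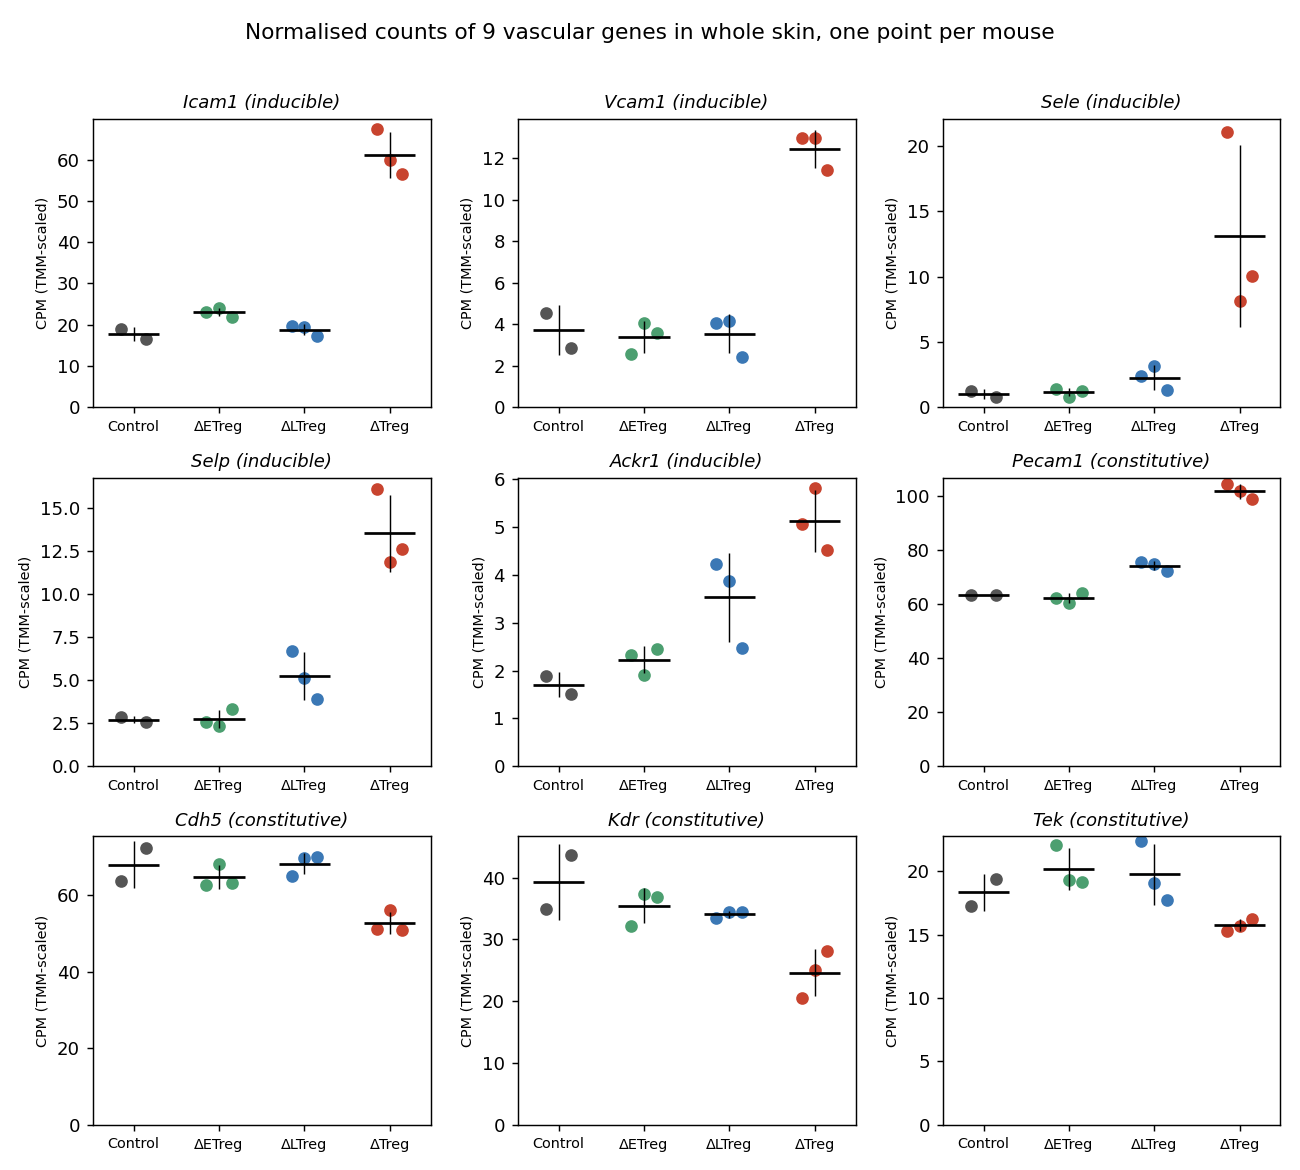
CPM (TMM-scaled counts, linear axes from 0) of each of the 9 genes in each mouse, by group, with points for mice, horizontal bars for means and vertical bars for SD. In the 5 inducible genes all 3 ΔTreg mice lie above every other mouse, and in Cdh5, Kdr and Tek they lie below.

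The selectins Sele and Selp had the largest folds of the 9 genes in ΔTreg against control. Sele encodes E-selectin, which activated endothelium makes on demand, and lies on chr1:164048234-164057677, plus strand. The control mice had 1.26 and 0.757 CPM, the ΔETreg mice 1.43, 0.822 and 1.24, the ΔLTreg mice 2.38, 3.14 and 1.28, and the ΔTreg mice 21.1, 8.14 and 10.05. The ΔTreg mice lay far above all others, 1 of them at over 2 times the level of the others of its group, and every ΔLTreg mouse lay above both controls, the lowest by a narrow margin. The log2 fold change of ΔTreg against control was 3.66 ± 0.516 (95% interval 2.53 to 4.80, adjusted p = 0.000557). Against ΔLTreg, the group of the same age, it was 2.53 ± 0.393 (5.78-fold, adjusted p = 0.00122).

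Selp encodes P-selectin, stored in endothelial granules and in platelets, and lies on the same chromosome at chr1:164115264-164150026, plus strand. It stood at 2.84 and 2.55 CPM in control mice, then 2.54, 2.33 and 3.30 for ΔETreg, 6.71, 5.10 and 3.88 for ΔLTreg, and 16.1, 11.9 and 12.6 for ΔTreg mice. The 4 groups formed 3 separate levels, with control and ΔETreg mice overlapping, ΔLTreg mice above both and ΔTreg mice above these. The rise in ΔTreg was log2 2.32 ± 0.244 against control (adjusted p = 8.35e-05) and 2.58-fold (log2 1.37 ± 0.195, adjusted p = 0.000701) against ΔLTreg. ΔLTreg against control gave a log2 fold change of 0.96 ± 0.244 that missed the threshold (adjusted p = 0.0513), but passed in DESeq2 (adjusted p = 0.0426), with DESeq2 size factors (adjusted p = 0.0497), without a filter (adjusted p = 8.01e-05) and without ΔLTreg replicate 3 (adjusted p = 0.0175). The non-coding genes Gm16587 and Gm16548 overlap Selp on the opposite strand, and as the strand setting of the counting is not given, a part of its counts is uncertain. Selp is a platelet gene too, and the summed level of 7 platelet and megakaryocyte genes was 20.8 to 23.1 CPM in control and 23.5 to 25.5 in ΔTreg mice. None of the 5 of these that could be tested passed, and the defining gene Gp9 was at 0 in at least 1 library of every group. The part of platelet RNA in the Selp values was not tested.

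The immunoglobulin-family ligands rose by 3.46-fold (Icam1) and 3.33-fold (Vcam1) in ΔTreg against control. Icam1, whose product binds the leukocyte integrin LFA-1, lies on chr9:21015985-21028817, plus strand. Control mice had 18.9 and 16.5 CPM, ΔETreg mice 23.1, 23.99 and 22.0, ΔLTreg mice 19.7, 19.4 and 17.2, and ΔTreg mice 67.3, 59.8 and 56.5. The ΔTreg mice were separated from all others by a wide gap, while ΔETreg mice formed a tight cluster slightly above both control and ΔLTreg mice. The fold change in ΔTreg was 3.46 against control (log2 1.79 ± 0.0990, adjusted p = 1.63e-06) and 3.25 against ΔLTreg (log2 1.70 ± 0.0848, adjusted p = 1.43e-06). In ΔETreg against control Icam1 changed by a log2 value of 0.38 ± 0.0968, which did not survive adjustment in edgeR (adjusted p = 0.86). An antisense gene, Gm47079, overlaps it.

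Vcam1, the ligand of the integrin VLA-4, lies on chr3:116109949-116129688, minus strand, and is overlapped by the antisense gene Gm43109. It stood at 4.55 and 2.87 CPM in control mice, 2.54, 4.04 and 3.60 for ΔETreg, 4.05, 4.16 and 2.44 for ΔLTreg and 12.99, 12.9 and 11.4 for ΔTreg mice. Control, ΔETreg and ΔLTreg mice overlapped throughout, and only the ΔTreg mice stood apart. Vcam1 was 3.33-fold higher in ΔTreg than in control (log2 1.74 ± 0.263, adjusted p = 0.000878) and 3.51-fold higher than in ΔLTreg (log2 1.81 ± 0.227, adjusted p = 0.000294).

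Ackr1, the atypical chemokine receptor of venules and red cells, followed a stepwise course. It lies on chr1:173331886-173333750, minus strand, within the annotated span of Cadm3 on the same strand, so that reads may be split between the pair. Control mice had 1.89 and 1.51 CPM, ΔETreg mice 2.33, 1.91 and 2.44, ΔLTreg mice 4.23, 3.88 and 2.47, and ΔTreg mice 5.06, 5.82 and 4.51. The levels stepped up from group to group with narrow gaps, each group lying wholly above the one before. ΔTreg exceeded control by a log2 value of 1.59 ± 0.245 (3.00-fold, adjusted p = 0.00101). Of the 5 inducible genes, Ackr1 alone was called in ΔLTreg against control (2.06-fold, log2 1.04 ± 0.247, adjusted p = 0.0393) and alone missed the threshold in ΔTreg against ΔLTreg (1.46-fold, 95% interval 1.08 to 1.96, adjusted p = 0.0857). The call against control was lost without any 1 of 4 libraries, both controls and ΔLTreg replicates 1 and 2, with adjusted p up to 0.192. It was also lost in DESeq2 (adjusted p = 0.0603), which called Selp in its place, and in edgeR on 2 groups (adjusted p = 0.185). Against ΔLTreg, Ackr1 passed with sex as a covariate (adjusted p = 0.0329) and without a filter (adjusted p = 0.0257). Summed erythroid gene levels were 292 to 302 CPM in control, 202 to 306 in ΔLTreg and 188 to 225 in ΔTreg mice, and their part in the Ackr1 values was not tested.

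**Figure D2:**
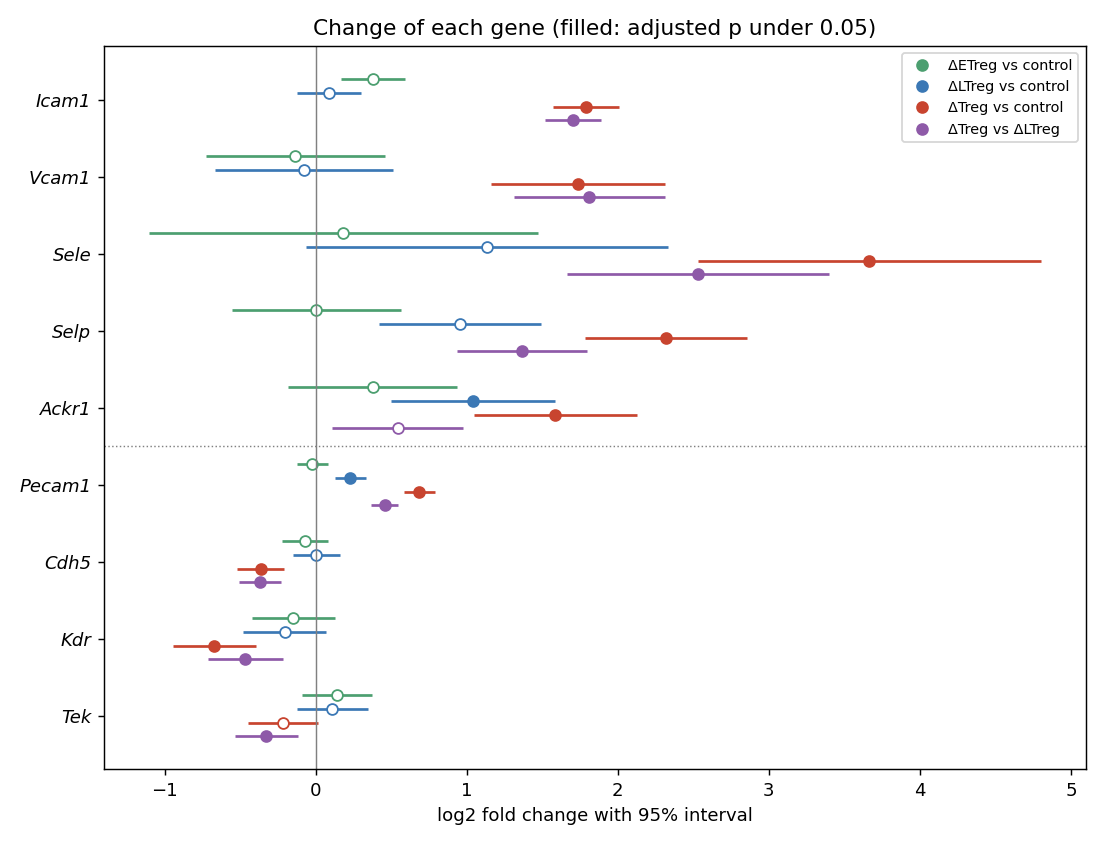
Log2 fold change of each gene with its 95% interval in 4 comparisons, where filled points passed an adjusted p of 0.05 and open points did not, and the dotted line parts the inducible genes (above) from the constitutive ones. Every inducible gene lies to the right of 0 in ΔTreg against control, from 1.59 for Ackr1 to 3.66 for Sele, and the constitutive genes lie on both sides.

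Among the constitutive genes, Pecam1 (chr11:106654217-106750628, minus strand) rose. Its product joins endothelial cells to each other and to crossing leukocytes. Control mice had 63.2 and 63.3 CPM, ΔETreg mice 62.4, 60.3 and 64.1, ΔLTreg mice 75.5, 74.7 and 72.2, and ΔTreg mice 104.5, 102.0 and 98.8. As with Selp, 3 levels were seen, and replicate mice lay close together in each. Pecam1 was 1.61-fold higher in ΔTreg than in control (log2 0.69 ± 0.0470, adjusted p = 5.62e-06) and 1.37-fold higher than in ΔLTreg (log2 0.46 ± 0.0412, adjusted p = 3.32e-05). It was also called in ΔLTreg against control, at 1.17-fold (log2 0.23 ± 0.0466, adjusted p = 0.0224). Without either control, or without ΔLTreg replicate 2, that last call was lost, with adjusted p up to 0.0993.

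Pecam1 is carried by leukocytes as well. All 8 genes of a leukocyte list rose in ΔTreg against control, as did 12.1% of all genes. Among them was Ptprc (CD45), from a mean of 12.4 to 46.6 CPM. The summed level of that list was 105 to 139 CPM in control, 85.7 to 107 in ΔETreg, 73.7 to 145 in ΔLTreg and 306 to 428 in ΔTreg mice. The part of leukocyte RNA in the values of any of the 9 genes, in any group, was not tested.

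Cdh5, encoding VE-cadherin, whose expression is largely restricted to endothelium, fell (chr8:104101625-104144511, plus strand, overlapped by the antisense gene Gm29682). Control mice had 63.6 and 72.3 CPM, ΔETreg mice 62.6, 68.2 and 63.2, ΔLTreg mice 65.0, 69.7 and 69.9, and ΔTreg mice 51.2, 56.1 and 51.0. The ΔTreg mice lay below all 8 others, and the remaining groups overlapped. The change was -22.3% against control (log2 -0.36 ± 0.0701, adjusted p = 0.00374) and -22.6% against ΔLTreg (log2 -0.37 ± 0.0630, adjusted p = 0.00216). Without control replicate 2 the first became -0.28 with an adjusted p of 0.0506.

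Kdr, encoding the VEGF receptor VEGFR2, fell further (chr5:75932827-75978458, minus strand). It stood at 35.0 and 43.6 CPM in control mice, 32.1, 37.4 and 36.8 for ΔETreg, 33.4, 34.3 and 34.4 for ΔLTreg and 20.6, 25.1 and 28.1 for ΔTreg mice. All ΔTreg mice lay below all others, with more spread among them than for Cdh5. The log2 fold change was -0.67 ± 0.125 against control (adjusted p = 0.00303) and -0.47 ± 0.113 against ΔLTreg (adjusted p = 0.0157).

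Tek, encoding the angiopoietin receptor TIE2, moved least (chr4:94739289-94874976, plus strand). Control mice had 17.3 and 19.4 CPM, ΔETreg mice 22.1, 19.3 and 19.1, ΔLTreg mice 22.4, 19.1 and 17.8, and ΔTreg mice 15.3, 15.7 and 16.2. The ΔTreg mice were again lowest, by a narrow margin. ΔTreg against control gave a log2 fold change of -0.22 ± 0.106 (95% interval -0.45 to 0.02, adjusted p = 0.175), which missed the threshold. Against ΔLTreg it was -0.33 ± 0.0948 (adjusted p = 0.0366), a call that was lost in 5 of 6 fits leaving out 1 library (all but that without ΔLTreg replicate 3), with adjusted p up to 0.11.

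The comparison of ΔTreg with ΔLTreg holds age at P13. There 4 of 5 inducible genes were higher, 1 of 4 constitutive genes higher and 3 of 4 lower, beside 10.7% of all tested genes higher and 6.11% lower (16.8% in either direction). Ackr1 included, 5 of 5 inducible genes had no overlap there, as had 19.2% of all genes in the upward direction. ΔTreg against ΔETreg, which differ in age, called 5 of 5 inducible genes higher, Pecam1 higher and Cdh5, Kdr and Tek lower, beside 13.2% of all genes higher and 9.81% lower. All 3 ΔTreg mice lay above all ΔETreg mice for 5 of 5 inducible genes and Pecam1, as for 23.4% of all genes, and below them for Cdh5, Kdr and Tek, as for 21.7%. The Sele fold there was 11.2, and that of Ackr1 2.31. The Tek call was lost without ΔETreg replicate 1, ΔTreg replicate 1 or ΔTreg replicate 2 (adjusted p up to 0.075), which leaves 2 constitutive genes lower.

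Fewer of the 9 genes were called after the shorter depletions. In ΔETreg against control, edgeR called 0 of 9 genes, and 1 of 9, Icam1, had an unadjusted p under 0.05. DESeq2 also called 0 of 9. Only 0.00544% of all genes were called in that comparison, 1 gene in all and higher. All ΔETreg mice lay above both controls for 2 of 5 inducible genes, Icam1 and Ackr1, and for 9.35% of all genes, and below them for 0 of 9 members and 10.3% of all genes. In ΔLTreg against control, Ackr1 and Pecam1 were called, beside 1.86% of all genes higher and 2.69% lower (4.55% in all). Sele, Selp and Ackr1 had no overlap between ΔLTreg and control mice and were higher, as were 15% of all genes, and the Sele log2 fold change of 1.13 ± 0.543 had an adjusted p of 0.272. Icam1 and Vcam1 showed no such shift there, with log2 fold changes of 0.09 ± 0.0966 and -0.08 ± 0.267. Among the constitutive genes, Pecam1 lay wholly above control in ΔLTreg mice. Kdr lay wholly below, as did 17.2% of all genes, but was not called (log2 -0.20 ± 0.124, adjusted p = 0.4).

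Set directly against each other, ΔETreg and ΔLTreg differed in Selp, which was lower in ΔETreg by a log2 value of -0.95 ± 0.214 (adjusted p = 0.0264), and in Pecam1, lower by -0.25 ± 0.0415 (adjusted p = 0.00671). Of all genes 3.12% were called lower and 3.27% higher (6.38% either way). Icam1 went the other way, at 0.29 ± 0.0852, and missed the threshold (adjusted p = 0.0665). Ackr1, at -0.67 ± 0.210, also missed it (adjusted p = 0.0862). The Selp call was lost without ΔETreg replicate 1, ΔETreg replicate 2 or ΔLTreg replicate 1, with adjusted p up to 0.118.

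To compare the 2 sets within each mouse, the mean log2 CPM of the 4 constitutive genes was taken from that of the 5 inducible ones. This difference was -3.43 and -4.00 in control mice, -3.52, -3.64 and -3.40 for ΔETreg, -2.95, -2.95 and -3.55 for ΔLTreg, and -1.06, -1.52 and -1.58 for ΔTreg mice. The first 3 groups overlapped, and the ΔTreg mice stood clear of them. Group means were -3.71 ± 0.402 (SD, n = 2), -3.52 ± 0.118, -3.15 ± 0.347 and -1.39 ± 0.282 (SD, n = 3 each). Nearly all of the shift lay in the inducible mean, which was 1.68 in control and 3.86 in ΔTreg, while the constitutive mean was 5.39 and 5.25. That constitutive mean joins opposite changes and does not stand for unchanged genes. Their log2 fold changes in ΔTreg against control were 0.69 for Pecam1, -0.36 for Cdh5, -0.67 for Kdr and -0.22 for Tek.

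**Figure D3:**
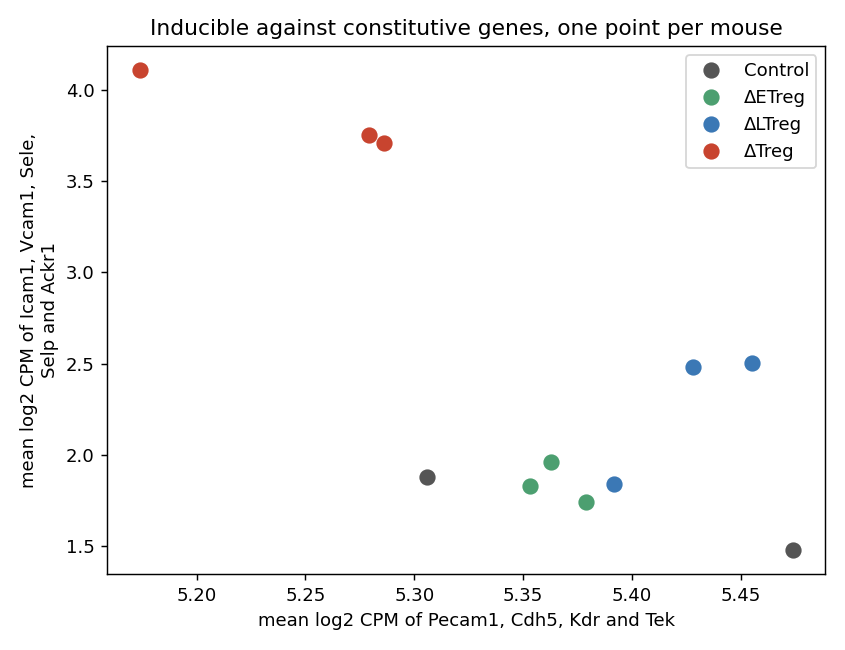
Mean log2 CPM of the 5 inducible genes (vertical axis) against that of the 4 constitutive genes (horizontal axis, a much narrower scale), 1 point per mouse. The 3 ΔTreg mice lie at the upper left, with inducible means of 3.71 to 4.11, and all other mice at 1.48 to 2.502.

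Levels of different genes were compared per kilobase of exon (RPKM). In control skin Cdh5 (16.2 RPKM) was highest, followed by Pecam1 (10.2). Kdr (4.35), Icam1 (4.06) and Tek (3.89) overlapped in the control mice, and were followed by Ackr1 (1.21), Selp (0.610), and Vcam1 (0.418) with Sele (0.346), which overlapped. In ΔTreg skin Pecam1 (16.3 RPKM) was highest, Icam1 (14.0) lay second and overlapped Cdh5 (12.6), and Sele averaged 4.49, with mice between 2.79 and 7.23. Ackr1 (3.65), Tek (3.34), Selp (3.07) and Kdr (2.72) overlapped in part, and Vcam1 (1.40) was lowest.

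**Figure D4:**
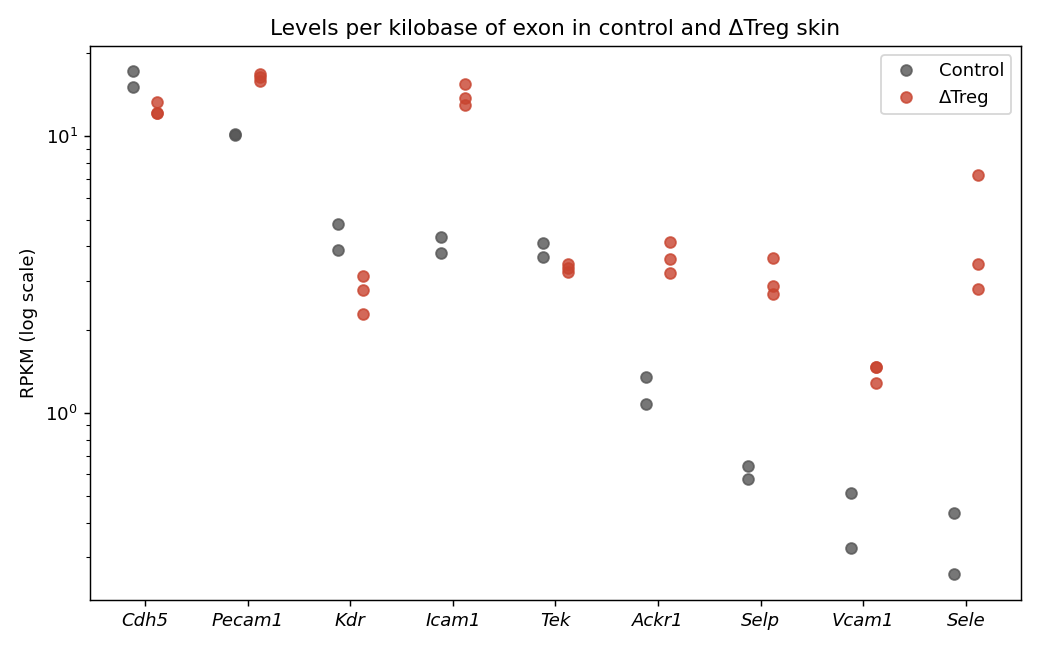
RPKM on a log axis for each gene in control (grey) and ΔTreg (red) mice, ordered by the control mean. Sele is lowest in control at a mean of 0.346 and in ΔTreg lies between 2.79 and 7.23, while Kdr and Tek lie at or below their control points.

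Within-mouse CPM ratios followed how the genes moved against each other. The Pecam1 to Cdh5 ratio was 0.876 to 0.994 in control, 0.884 to 1.01 in ΔETreg, 1.03 to 1.16 in ΔLTreg and 1.82 to 2.04 in ΔTreg mice. That of Kdr to Cdh5 was 0.550 to 0.603 in control and 0.402 to 0.551 in ΔTreg mice, so these ranges barely overlapped. Sele to Selp went from 0.297 to 0.444 in control mice to 0.685 to 1.31 in ΔTreg mice, and Ackr1 to Selp from 0.594 to 0.667 down to 0.315 to 0.490. Across the 11 libraries Pearson's r of log2 CPM was 0.967 for Sele and Selp, 0.985 for Selp and Pecam1, and 0.751 for Icam1 and Ackr1. The libraries share their groups, of which ΔTreg stands apart, and r was not computed within groups or without the ΔTreg libraries.

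Other genes of blood endothelium were split, as the constitutive genes were. Of 20 identity genes, 6 rose and 4 fell in ΔTreg against control, with a median log2 fold change of 0.03 beside -0.01 over all tested genes. The shares of all tested genes called were 12.1% higher and 9.39% lower. Flt1, a decoy-like VEGF receptor, rose from a mean of 17.7 to 48.1 CPM (log2 1.44, adjusted p = 2.69e-05), and Plvap, which forms the diaphragms of fenestrated and venular endothelium, from 55.2 to 136 (log2 1.30, adjusted p = 3.09e-05). Ecscr, Mmrn2, Eng and Vwf also rose. Clec14a fell from 9.26 to 5.69 CPM (log2 -0.70, adjusted p = 0.000445), and Ptprb, Sox18 and Cd93 fell too. The summed level of the list was 425 to 429 CPM in control, 403 to 435 in ΔETreg, 487 to 491 in ΔLTreg and 510 to 573 in ΔTreg mice. Genes with high levels, such as Plvap, weigh most in this sum, so it does not stand for a rise of the list as a whole.

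Of 16 tested genes of other endothelial adhesion and junction proteins, 2 rose and 6 fell (median log2 0.06), beside 12.1% of all genes higher and 9.39% lower. The count that rose was thus near the background. Some genes of this list stood far above Cdh5 (68.0 CPM) in control skin, such as Tjp1 (206) and F11r (167). The part of other cell types, keratinocytes among them, in the values of this list, Ocln included, was not tested. The counts are therefore not specific to endothelial junctions. Those that rose were Pvr (log2 0.69) and Madcam1, the ligand of the integrin α4β7, at a mean of 0.240 CPM in control and 0.703 in ΔTreg (log2 1.56, adjusted p = 0.0275). Mcam (CD146, log2 -0.50, adjusted p = 0.000296) and the junction gene Jam2 (log2 -0.73, adjusted p = 0.000771) fell, with Ocln, Jam3, Cd99l2 and Aoc3. In ΔLTreg against control, Podxl was higher (log2 0.53, adjusted p = 0.00988) and Mcam lower (log2 -0.33, adjusted p = 0.017), and the other 14 did not pass.

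Genes marking parts of the vascular tree were given by the same test in ΔTreg against control, where 12.1% of all genes rose and 9.39% fell. Of 7 venule genes 5 rose, namely Plvap, Il1r1, Cpe, Lrg1 and Vwf, and Ephb4 fell (log2 -0.19). Plvap and Vwf were already counted among the identity genes above. Some of these venule genes are made outside venules as well. The part of other cell types in the artery and capillary genes below, Stmn2 and Kitl among them, was not tested. Of 7 artery genes none rose and 2 fell, Stmn2 (log2 -1.61, adjusted p = 0.0011) and the Notch target Hey1 (log2 -0.89, adjusted p = 0.00176). Of 7 capillary genes, Car4, which other skin cells also make, rose from 5.54 to 47.9 CPM (log2 3.10, adjusted p = 0.0001), and Kitl (log2 -0.72, adjusted p = 0.00058) and Cd36 (log2 -0.36) fell. In ΔTreg against ΔLTreg, both at P13, 2 venule genes were higher and 0 lower. There 1 artery gene was lower, and 1 capillary gene was higher and 1 lower, beside 10.7% of all genes higher and 6.11% lower. No venule gene was called in ΔLTreg against control. Mean Lrg1 was 5.95 CPM in control, 14.3 in ΔLTreg and 14.3 in ΔTreg, and mean Plvap 55.2, 75.7 and 136. Mean Stmn2 was 4.06 CPM in control, 2.13 in ΔLTreg and 1.30 in ΔTreg, so it was low in ΔLTreg too, and mean Hey1 was 5.11, 5.39 and 2.74.

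Ligands and receptors of vascular growth were divided evenly, with 4 of 17 higher and 4 lower in ΔTreg against control, beside 12.1% and 9.39% of all genes. Vegfa, the main ligand of KDR, rose from 23.2 to 62.9 CPM (log2 1.44, adjusted p = 0.000135), as did Flt1, Pgf (log2 1.53) and Angpt2 (log2 0.91), a ligand of TIE2. The apelin receptor gene Aplnr fell from 21.8 to 9.78 CPM (log2 -1.16, adjusted p = 3.04e-06), with its ligand gene Apln (log2 -1.28), Ptprb and Vegfc (log2 -0.85). Apln was the only 1 of the 17 called in ΔLTreg against control, at -0.92 (adjusted p = 0.0272).

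Of 15 genes of leukocyte counter-receptors and the enzymes that make selectin ligands, 9 rose, 1 fell and 5 did not pass in ΔTreg against control (median log2 1.76). The shares of all genes were 12.1% higher and 9.39% lower. Itgal, the α chain of LFA-1 that binds ICAM-1, rose from 4.10 to 24.1 CPM (log2 2.55, adjusted p = 0.000157), and Spn (CD43), which E-selectin can bind, from 2.44 to 13.1 (log2 2.42, adjusted p = 5.14e-06). Fut7, which makes selectin ligands, had 2 and 0 counts in the control libraries and was at least 8.09-fold higher in ΔTreg, against a floor of 3 counts per library. Fut4 fell (log2 -0.70). Itga4, the α chain of VLA-4, did not pass (log2 0.47, adjusted p = 0.215), nor did its β chain Itgb1 (log2 -0.03, adjusted p = 0.817).

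Cytokines that activate endothelium also rose in ΔTreg skin. Of 11 tested, 9 were higher and none lower than in control, beside 12.1% and 9.39% of all genes. The median log2 fold change was 3.07, or 2.88 with genes at the counting floor set to their bound. Il13 rose from 0.220 to 5.52 CPM (log2 4.60, adjusted p = 1.58e-05) and Ltb from 0.579 to 4.88 (log2 3.07, adjusted p = 1.41e-05). With 3 or fewer counts in each control library, Ifng was at least 19.3-fold higher, Il6 at least 7.35-fold and Lta at least 6.15-fold. Tnf rose less, from 1.34 to 2.38 CPM (log2 0.81, adjusted p = 0.0427). Of 11 receptor genes 9 rose, with a median of 0.44, the smallest p being those of Ifngr1 (log2 0.76, adjusted p = 0.000145) and Il13ra1 (log2 0.65, adjusted p = 0.000214). Larger changes were seen in Il4ra, from 49.7 to 122 CPM (log2 1.29), and Tnfrsf1b, from 10.5 to 25.0 (log2 1.25). In ΔLTreg against control none of these 22 tested genes passed.

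Of 18 genes of the NF-kB pathway and its targets, 17 rose and none fell in ΔTreg against control (median log2 1.01). These counts stand beside 12.1% of all genes higher and 9.39% lower. Tnfaip2 rose from 14.1 to 51.0 CPM (log2 1.86, adjusted p = 8.5e-06) and Nfkb2, which encodes a subunit of the pathway, from 32.5 to 61.3 (log2 0.91, adjusted p = 1.24e-05). Ccl2, which draws monocytes, was 3.60 higher on the log2 scale in ΔTreg than in ΔLTreg (adjusted p = 2.61e-05). Irf1 was the only gene of the list called in ΔLTreg against control (log2 1.09, adjusted p = 0.0365). In ΔETreg against control no gene of any list passed.

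**Figure D5:**
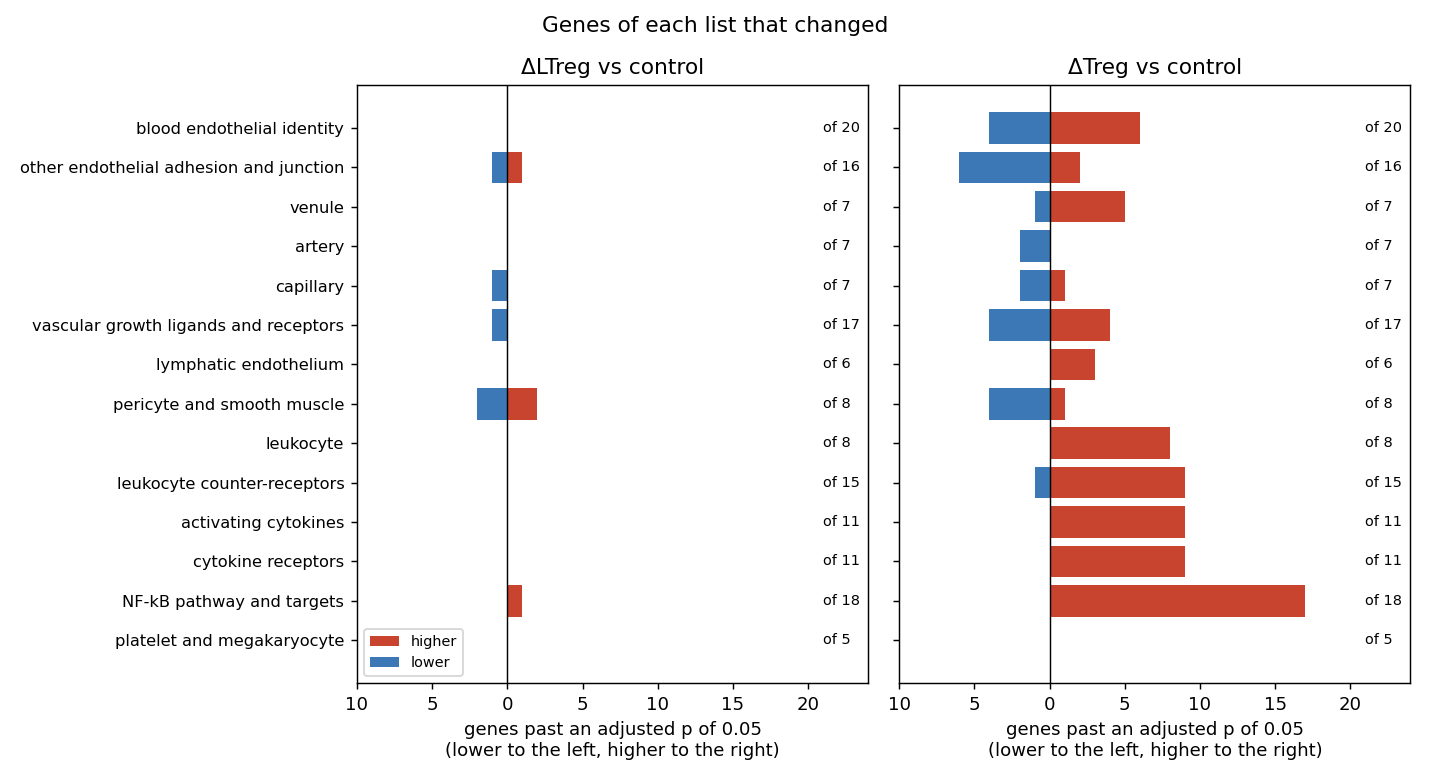
Number of genes of each list called higher (red, to the right) and lower (blue, to the left) in ΔLTreg against control and in ΔTreg against control, with the number tested at the right. The NF-kB list has 17 of 18 genes higher in ΔTreg against control, and the blood endothelial list has 6 higher and 4 lower of 20. Of all tested genes, 12.1% were higher and 9.39% lower in that comparison.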

How the data were processed

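Total RNA from skin of 11 mice was sequenced, and the authors deposited raw read counts per gene, made with Trimmomatic 0.36, STAR 2.5.2b and featureCounts of Subread 1.5.2 on GRCm38 per the methods and processing notes. The annotation release and strand setting are not given in the sources used here. Groups came from the labels, 1 library per mouse, so p-values measure the spread between mice. All libraries carry the same batch label.

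Counts were normalised by TMM, filtered with filterByExpr and fitted in 1 model of all 4 groups with edgeR 4.0.16 (quasi-likelihood test, R 4.3.3), with Benjamini-Hochberg adjustment over all 18375 tested genes, since counts need a count model. The test was tried on simulated data first. DESeq2 1.42.0, the study's own tool, was an alternative, beside fits of 2 groups, other scalings, other filters, sex (read from the expression of sex-linked genes) as a covariate, and each library left out. CPM are TMM-scaled. Log2 CPM used a prior count of 2. RPKM used exon lengths of GENCODE M21, which also gave gene positions (GRCm38), and promoter windows are from RefSeq (GRCm38.p6). Of all gene rows, 174 had no gene name. Libraries differed by more than counting error within every group (median chi-square per gene 0.988 to 3.24, against 0.455), so none was counted as a duplicate.

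The 9 genes and all lists were chosen with earlier results of these data known. Some genes stand in several lists, such as Plvap and Vwf (identity and venule), Flt1 and Ptprb (identity and vascular growth) and Il1r1 (venule and cytokine receptors). The counts of different lists are therefore not independent. From each list the genes with the smallest p in ΔTreg against control and ΔTreg against ΔLTreg are named, 2 for each where space allows, and further genes, named where a count was small, were chosen after their values were seen. Intervals are 95% intervals from the fit.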

Additional observations from a re-analysis of the deposited data

Results flagged for a closer look

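In 2 genes ΔETreg and ΔLTreg differed when set directly against each other (edgeR's quasi-likelihood test). The control mean does not enter this contrast, so it is a difference between the groups and not between 2 effects measured against age-matched controls. The Selp difference, ΔETreg minus ΔLTreg, was -0.95 on the log2 scale (adjusted p = 0.0264), and every ΔETreg mouse lay below every ΔLTreg mouse. The Pecam1 difference was -0.25 (adjusted p = 0.00671), again with no overlap between the mice. Of all genes, 13.7% had every ΔETreg mouse below every ΔLTreg mouse. Age at harvest, P9 against P13, cannot be told apart from the time of depletion in either.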

How the results depend on the processing

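The ΔTreg results moved least: in ΔTreg against control, 107 of 108 gene values under the alternatives kept their direction and call. No paired analysis was possible because the labels give no replicate numbers shared between groups. The 2 control libraries and counts as low as 19 limit the smaller differences, above all for Sele, and the causes of the changes below were not tested.

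In ΔLTreg against control, the inducible genes called higher numbered 1, but 0 in edgeR on 2 groups, 2 with DESeq2 size factors, 3 without a filter and 0 to 2 leaving out 1 library. DESeq2 also called 1, but Selp in place of Ackr1. The constitutive genes called higher numbered 1, but 0 in DESeq2, edgeR on 2 groups and without a filter, and 0 to 1 leaving out 1 library. The constitutive genes lower in ΔTreg against control numbered 1 to 2 leaving out 1 library, and those lower in ΔTreg against ΔETreg 2 to 3. For ΔETreg against ΔLTreg, 1 inducible gene, not 0, was higher in DESeq2, without a filter and with sex as a covariate. Those lower numbered 1, but 0 in edgeR on 2 groups, 3 without a filter and 0 to 2 leaving out 1 library. With the blood endothelial list as reference, the inducible minus constitutive difference of ΔTreg and ΔETreg was 1.82 in place of 2.13.

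Signs turned only in values that missed the threshold. Pecam1 in ΔETreg against control was 0.0122 under total count scaling, and with sex as a covariate Vcam1 and Kdr were 0.0421 and -0.0156 in ΔETreg against ΔLTreg. Leaving out 1 library, ΔETreg against control ranged from -0.42 to 0.24 for Vcam1, -0.12 to 0.61 for Sele, -0.15 to 0.11 for Selp, -0.16 to 0.0232 for Cdh5 and -0.30 to 0.0185 for Kdr. ΔLTreg against control ranged from -0.0101 to 0.19 for Icam1, -0.36 to 0.30 for Vcam1 and -0.0857 to 0.0998 for Cdh5. ΔETreg against ΔLTreg ranged from -0.27 to 0.12 for Vcam1 and -0.0341 to 0.13 for Tek. Of all tested genes, 1 was called in ΔETreg against control, 19 in DESeq2 and 54 without a filter. ΔLTreg against control gave 836, but 154 in edgeR on 2 groups and 1790 without a filter, and ΔETreg against ΔLTreg 1173, but 540 in edgeR on 2 groups and 2173 without a filter.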

Other observations

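Lymphatic and mural genes were followed beside blood endothelium, in a comparison (ΔTreg against control) where 12.1% of all genes rose and 9.39% fell. Of 6 tested lymphatic endothelial genes, 3 rose in ΔTreg against control: Lyve1, a hyaluronan receptor also carried by some macrophages, from a mean of 18.3 to 67.1 CPM (log2 1.87, adjusted p = 6.69e-05), Mmrn1 (log2 0.69, adjusted p = 0.00341) and Reln (log2 0.44, adjusted p = 0.035). Prox1, the transcription factor that defines the lineage, did not pass (log2 -0.37, adjusted p = 0.0678). The macrophage genes Mrc1 (log2 2.04) and C1qa (log2 2.21) rose in the same libraries, with 4 of 6 macrophage genes called, and their part in the Lyve1 value was not tested.

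Of 8 pericyte and smooth muscle genes, 4 fell in ΔTreg against control, the channel subunits Abcc9 (log2 -0.82, adjusted p = 0.00276) and Kcnj8 (log2 -0.95, adjusted p = 0.00505) with Cspg4 (log2 -0.29) and Pdgfrb (log2 -0.32), and Myh11 rose (log2 0.69). The pericyte gene Rgs5 stood at 92.4 CPM in control and 92.6 in ΔTreg skin (adjusted p = 0.982). Of 6 fibroblast genes 3 fell, Col1a2, Col1a1 and Lum, of 5 keratinocyte genes Krt14 rose, and of 6 tested erythroid genes 3 globin genes fell and Slc4a1 rose. Of all genes, 12.1% rose and 9.39% fell in that comparison. In ΔTreg against ΔLTreg, 2 pericyte and smooth muscle genes were lower and 0 higher, and 1 fibroblast gene was higher and 0 lower. In ΔLTreg against control, 2 of the 8 pericyte and smooth muscle genes were called higher and 2 lower, beside 1.86% and 2.69% of all genes. Mean Cspg4 was 91.6 CPM in control, 66.7 in ΔLTreg and 74.7 in ΔTreg, and mean Kcnj8 8.54, 8.77 and 4.38. Mean Pdgfrb was 51.0, 36.3 and 40.9 CPM and mean Myh11 67.0, 113 and 108, so these shifts were not particular to ΔTreg.

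By Pearson's r of log2 CPM over the 11 libraries, the genes most like Icam1 were Ch25h (0.993), Elf4 and Clic4, and those most like Vcam1 were Coch (0.99), Il6ra and Slc25a48. Sele was closest to Prkcd (0.99), Csf2rb2 and Efhd2, and Selp to Plvap (0.994), H2-Eb1 and Pfkp. Ackr1 was closest to Ly6c1 (0.979), BC023105 and Gbp10. Pecam1 lay nearest to Ceacam12 (0.995), Bak1 and Tap2, Cdh5 to Tsr2 (0.964), C130074G19Rik and Xrcc5, Kdr to Wdr6 (0.979), Aagab and Pxylp1, and Tek to Cald1 (0.947), Ptma and Abhd4. The points share 4 groups, of which ΔTreg stands apart.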
